A study of Mus musculus with 6 samples.

Results

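Laminins, nidogens and the proteoglycans perlecan and agrin are the non-collagen core of the basement membrane, the thin matrix sheet on which epithelial and endothelial cells rest. Laminins are secreted as trimers of an alpha, a beta and a gamma chain, and nidogens and perlecan tie the laminin layer to the network of type IV collagen. Cells hold the sheet through integrins and through dystroglycan, a receptor whose sugar chain binds laminin, perlecan and agrin. In the lung, fibroblasts contribute part of this matrix. The genes described here are the 10 rows of the deposited gene table named Lama2, Lama4, Lama5, Lamb1, Lamb2, Lamc1, Nid1, Nid2, Hspg2 and Agrn, out of 54532 genes, and the rows were found by gene name.

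RNA-seq covered 6 libraries from cells labelled mouse primary lung fibroblasts, 3 of calumenin knockdown (KD) cells and 3 of cells called NC. Calu is the gene of calumenin, which binds calcium in the secretory pathway. The titles say KD and NC, the descriptions call the same libraries KO and WT, and the labels spell out neither NC nor the way calumenin was lowered. They also give no age, strain or sex and do not say whether replicates were separate cultures, so p-values measure the spread between these libraries, which may be technical. The question stated for the study was how loss of calumenin bears on senescence and fibrosis signalling.

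Reads recovered per library ranged from 16191536 to 18312888 in KD and from 15907164 to 16280183 in NC. Calu had 14.6, 12.6 and 13.1 FPKM (fragments scaled to gene length and library size) in KD1, KD2 and KD3, against 220, 227 and 225 FPKM in NC1, NC2 and NC3. The summed level of 8 fibroblast markers was 1312 to 1352 FPKM in KD and 1173 to 1223 FPKM in NC, and 5 of them averaged at least 1 FPKM, led by Vim and Col1a2. In the test described below, Col1a1 (284 FPKM in KD, 149 FPKM in NC) and Pdgfra were higher in KD (limma adjusted p = 0.000193 and 0.00422). Pdgfrb (30.3 FPKM in KD, 36.9 FPKM in NC) was lower (adjusted p = 0.0292). Col1a2 (450 FPKM in KD, 403 FPKM in NC) did not overlap between groups but did not pass (adjusted p = 0.122). Vim (559 FPKM in KD, 602 FPKM in NC) overlapped and did not pass (adjusted p = 0.226). Dcn and Thy1 had at most 0.0216 and 0.169 FPKM in any library, and Lum had 0 reads in all 6. All 6 epithelial and all 6 endothelial markers averaged under 1 FPKM, and the summed level of the 6 leukocyte and macrophage markers was 5.44 to 8.70 FPKM in KD and 9.45 to 10.3 FPKM in NC. Summed smooth muscle and pericyte markers were 40.6 to 54.9 FPKM in KD and 48.3 to 52.9 FPKM in NC, nearly all of it Cspg4, and summed mesothelial markers were 10.7 to 14.2 FPKM in KD and 13.8 to 14.9 FPKM in NC, nearly all of it Msln. The part of these markers in the results was not tested. KD1 stood apart from KD2 and KD3, with 2.56% of its reads from mitochondrial genes against 1.60% to 1.97% in the other 5 libraries.

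Of the 10 genes, Lama5 and Lamb2 rose in KD cells and Agrn fell. These are the alpha5 and beta2 laminin chains, which can join gamma1 in the same trimer, and agrin, a heparan sulfate proteoglycan best known for clustering acetylcholine receptors at the nerve-muscle synapse. Lamb1, Lamc1 and Hspg2 were abundant and did not pass the test, and Lama2, Lama4, Nid1 and Nid2 were at or near the limit of detection. The test was limma on log2(FPKM + 1) over the 12299 genes whose 6 libraries averaged 1 FPKM or more, at a Benjamini-Hochberg adjusted p under 0.05. Of the 6 genes that reached that mean, 2 were higher and 1 lower, where 10.9% of all genes tested were higher, 13.6% were lower and 24.5% passed in either direction. The groups did not overlap for these same 3 genes, where all KD values lay above all NC values for 21.3% of the genes tested and below for 22.9%. Since 6 genes are few, these counts describe the 6 and are not set against that background by a test. Their median log2 difference was 0.10, against 0.0093 over all genes tested.

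The starts of the 3 genes that changed are shown because Lama5 and Lamb2 moved the same way and Agrn the other way. Each line holds 250 bases before the RefSeq transcript start and 50 bases from it on, 5′ to 3′ on the gene's strand, from build GRCm38.p6. Capitals mark the GC box GGGCGG, a site type bound by Sp family factors, or its reverse complement CCGCCC, and the short CRE motif TGACGT or its reverse complement ACGTCA.
Lama5, chr2:180225810-180226109, minus strand: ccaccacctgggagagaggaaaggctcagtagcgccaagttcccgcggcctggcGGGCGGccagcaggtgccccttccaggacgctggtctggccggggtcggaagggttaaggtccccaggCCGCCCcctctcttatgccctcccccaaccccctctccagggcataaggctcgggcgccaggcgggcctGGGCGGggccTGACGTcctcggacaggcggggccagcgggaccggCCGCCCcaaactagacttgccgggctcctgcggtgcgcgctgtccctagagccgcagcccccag
Lamb2, chr9:108479612-108479911, plus strand: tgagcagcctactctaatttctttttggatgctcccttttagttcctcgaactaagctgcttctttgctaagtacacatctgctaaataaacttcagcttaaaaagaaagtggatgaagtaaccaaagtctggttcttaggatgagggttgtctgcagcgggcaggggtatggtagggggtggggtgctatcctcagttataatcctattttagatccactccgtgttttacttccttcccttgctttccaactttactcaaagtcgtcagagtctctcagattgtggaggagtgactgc
Agrn, chr4:156197439-156197738, minus strand: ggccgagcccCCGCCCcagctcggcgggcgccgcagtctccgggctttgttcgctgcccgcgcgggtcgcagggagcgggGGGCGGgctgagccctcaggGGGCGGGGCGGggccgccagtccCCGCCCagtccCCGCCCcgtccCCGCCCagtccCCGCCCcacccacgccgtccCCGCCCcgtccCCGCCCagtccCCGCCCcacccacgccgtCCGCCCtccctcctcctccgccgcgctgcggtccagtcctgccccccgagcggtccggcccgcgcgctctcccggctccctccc

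The 3 windows differed widely in composition. The Agrn window was 83.3% G and C and held 12 GC boxes on the 2 strands, overlapping matches counted, and only 0.0213% of the 32851 windows in the table held as many or more. The Lama5 window was 72.7% G and C, with 4 GC boxes and a TGACGT whose first base lies at -49 from the start. At 44% G and C, the Lamb2 window held neither motif, and the median over all windows was 52.7%. A GC box occurred in 35.7% of all windows and the short CRE motif in 7.51%.

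Windows were found for 7 of the 10 genes, and Lama4, Lamc1 and Nid2 had none in the table. The Hspg2 window held 5 GC boxes, the Lamb1 window 2, and the Nid1 and Lama2 windows 1 each. A CCAAT box, found in 37.4% of all windows, occurred in the Lamb1 and Nid1 windows only among these 7 genes. The TATA box TATAAA (13.6% of all windows), the AP-1 motif TGANTCA (7.81%) and the E-box CACGTG (7.15%), searched on both strands, occurred in none of the 7. Agrn has a second RefSeq start, with a window at chr4:156186210-156186509 that was 61.3% G and C and held 2 GC boxes. FPKM are per gene and do not separate the 2 starts.

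Laminin alpha chains were represented almost wholly by Lama5 (ENSMUSG00000015647), on the minus strand of chromosome 2 at 180176373 to 180225859 (mm10). Laminin alpha5 is the alpha chain of laminins that are common in adult basement membranes and bind integrins alpha3beta1 and alpha6beta1. Lama5 had 72.2, 86.0 and 84.0 FPKM in KD1, KD2 and KD3, against 50.3, 49.4 and 51.1 FPKM in NC1, NC2 and NC3. Every KD library lay above every NC library, and KD1 was the lowest of the KD libraries. The mean was 80.7 ± 7.46 FPKM in KD and 50.3 ± 0.87 FPKM in NC (SD, n = 3 each), a 1.61-fold difference. This is 0.67 in log2(FPKM + 1) units (SE 0.08, limma adjusted p = 0.00182). In libraries of whole cultures, a change in the number of cells that express a gene and a change in RNA per cell cannot be told apart, and this holds for each difference given here.

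Lama2 and Lama4 were scarcely detected. Laminin alpha2 is the alpha chain of muscle and peripheral nerve basement membranes, and laminin alpha4 is that of vessels and of many mesenchymal cells. Lama2, on chromosome 10 at 26980036 to 27619758, had 0, 2 and 0 reads in the KD libraries, against 6, 1 and 2 reads in the NC libraries. Lama4, on chromosome 10 at 38965515 to 39110188, had 0 reads in each KD library, against 0, 1 and 1 reads in the NC libraries. A count of 0 allows up to 0.0134 to 0.0150 FPKM of Lama4 in the KD libraries, taking 3 reads as the limit. Both lay below the filter, and at these counts a difference in them could hardly be found. With no filter, limma adjusted p was 0.707 for Lama2 and 0.875 for Lama4. The 1 added to each FPKM far exceeds their values, so these p-values could hardly have been low.

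Taken as shares of the summed FPKM of Lama2, Lama4 and Lama5, Lama5 made up 100%, 99.99% and 100% in the KD libraries, against 99.95%, 99.98% and 99.97% in the NC libraries (exact two-sided permutation p = 0.1, the smallest that 3 against 3 allows). The Lama4 share was 0% in KD and at most 0.01055% in NC (exact permutation p = 0.4). Of the alpha chains outside the 10 genes, Lama1 had 1 read over the 3 KD libraries and 4 over the 3 NC libraries, and Lama3 had 6 reads in KD and 11 in NC.

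**Figure D1:**
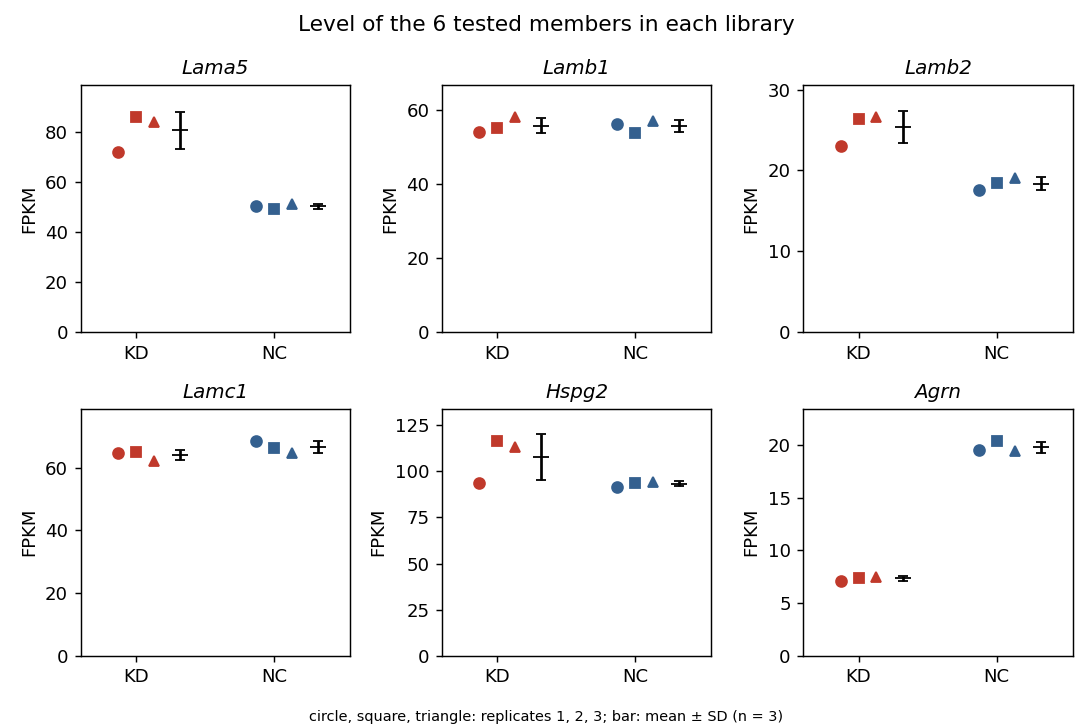
Level in FPKM (y axes, each from 0) of the 6 genes averaging 1 FPKM or more, in the 3 KD libraries (left) and the 3 NC libraries (right); markers are replicates and bars the mean ± SD. KD and NC do not overlap for Lama5, Lamb2 and Agrn, and KD1 is the lowest KD library for every gene shown but Lamc1.

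The beta chains parted, with Lamb2 higher in KD cells and Lamb1 close to its NC level. Laminin beta1 is the widespread beta chain, and laminin beta2 is known from the glomerular filter, the neuromuscular junction and vessel walls. Lamb2 (ENSMUSG00000052911, chromosome 9, 108479736 to 108490530, plus strand) had 23.1, 26.4 and 26.6 FPKM in KD1, KD2 and KD3, against 17.6, 18.4 and 19.1 FPKM in NC1, NC2 and NC3. The KD libraries all lay above the NC libraries. The mean was 25.4 ± 1.98 FPKM in KD and 18.4 ± 0.77 FPKM in NC (SD, n = 3 each), 1.38-fold higher, with a log2 difference of 0.44 (SE 0.07, limma adjusted p = 0.00701).

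Lamb1 (ENSMUSG00000002900, chromosome 12, 31265234 to 31329644, plus strand) had 54.1, 55.2 and 58.1 FPKM in the KD libraries, against 56.1, 53.9 and 56.9 FPKM in the NC libraries. The groups overlapped, and the log2 difference was 0.0035 with a 95% interval of -0.13 to 0.13 (limma adjusted p = 0.969). Lamb2 thus made up 29.9%, 32.4% and 31.4% of the summed FPKM of Lamb1 and Lamb2 in the KD libraries, against 23.8%, 25.5% and 25.1% in the NC libraries. The mean share was 6.41 percentage points higher in KD (exact two-sided permutation p = 0.1). The size of the share depends on the deposited gene lengths. Lamb3, a beta chain of epithelial laminin outside the 10 genes, had 0.188 to 0.338 FPKM in KD and 0.282 to 0.333 FPKM in NC and was below the filter.

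Lamc1 encodes gamma1, the gamma chain of most laminins and the one that carries the nidogen-binding site. Lamc1 (ENSMUSG00000026478), on the minus strand of chromosome 1 at 153218922 to 153332786, had 64.8, 64.9 and 62.2 FPKM in the KD libraries, against 68.5, 66.2 and 64.7 FPKM in the NC libraries. KD1 and KD2 lay just above NC3, so the groups overlapped. The log2 difference was -0.05, with a 95% interval of -0.18 to 0.07 (limma adjusted p = 0.477).

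Outside the 10 genes, the gamma chain gene Lamc3 had 3 reads over the KD libraries and 1 over the NC libraries.

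**Figure D2:**
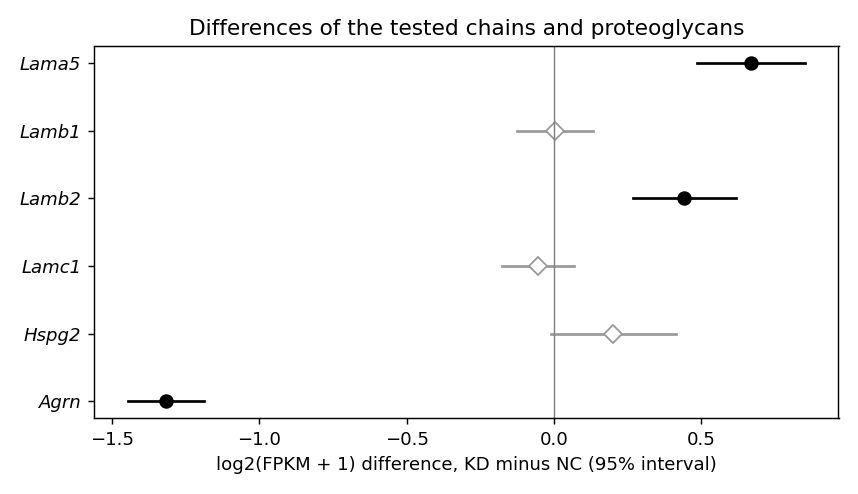
Difference in log2(FPKM + 1), KD minus NC (x axis), with its 95% interval from limma, for the 6 genes averaging 1 FPKM or more; filled circles passed an adjusted p of 0.05 and open diamonds did not. Lama5 and Lamb2 lie to the right of 0, Agrn to the left, and the intervals of Lamb1, Lamc1 and Hspg2 include 0.

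The order of the chains by level differed between the groups. FPKM are per length, so an order of different genes depends on the deposited gene lengths, such as 9917 bases for Lamb1 and 6082 for Lamb2. These were not checked against the lengths of the transcripts expressed. For any 1 gene the length is the same in KD and NC. In KD cells the order was Hspg2, Lama5, Lamc1, Lamb1, Lamb2 and Agrn, with means of 108, 80.7, 64.0, 55.8, 25.4 and 7.34 FPKM. In NC cells it was Hspg2, Lamc1, Lamb1, Lama5, Agrn and Lamb2, with means of 93.2, 66.5, 55.6, 50.3, 19.8 and 18.4 FPKM. No neighbours in either order had overlapping values within their group. Lama5 lay below both Lamc1 and Lamb1 in each NC library and above both in each KD library.

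The ratio of Lama5 to Lamc1 was 1.115, 1.32 and 1.35 in KD1, KD2 and KD3, against 0.734, 0.746 and 0.790 in NC1, NC2 and NC3. The summed beta chains over Lamc1 came to 1.19, 1.26 and 1.36 in the KD libraries, against 1.08, 1.09 and 1.18 in the NC libraries. Both ratios were higher in each KD library than in every NC library (exact two-sided permutation p = 0.1 for each, the smallest possible). They share Lamc1 as their denominator, and their sizes depend on the deposited gene lengths. Neither ratio was among the planned comparisons. Both use the same values as the single-gene tests, so they add no separate evidence.

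**Figure D3:**
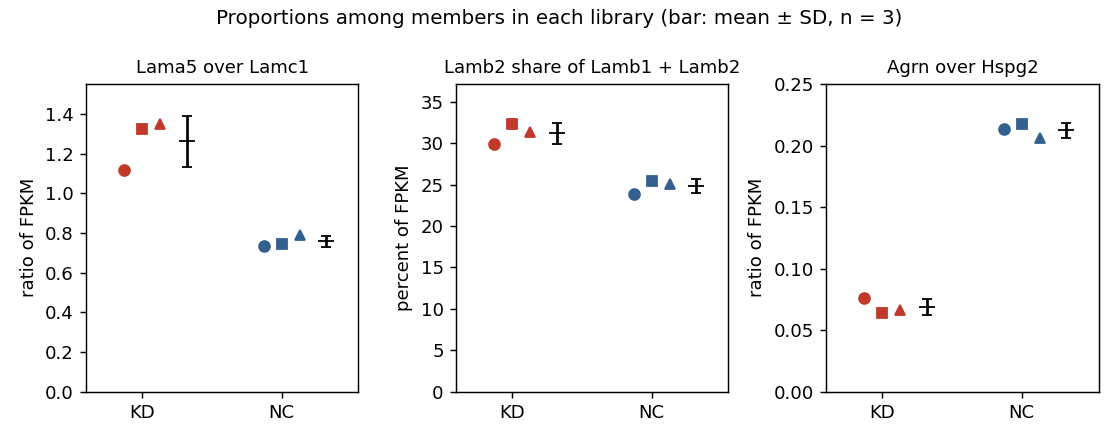
Ratio of Lama5 to Lamc1, share of Lamb2 in the summed FPKM of Lamb1 and Lamb2, and ratio of Agrn to Hspg2 (y axes, each from 0) in the 3 KD libraries (left) and the 3 NC libraries (right), with mean ± SD. The first 2 are higher in every KD library, and the ratio of Agrn to Hspg2 is lower, at 0.0686 in KD and 0.212 in NC on average. Each panel uses the same values as the single-gene tests and adds no separate evidence.

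Among the proteoglycans, Agrn fell in KD cells by the widest margin of the 6 genes above the filter. Agrn (ENSMUSG00000041936), on the minus strand of chromosome 4 at 156165290 to 156197488, had 7.10, 7.41 and 7.51 FPKM in KD1, KD2 and KD3, against 19.6, 20.4 and 19.4 FPKM in NC1, NC2 and NC3. The groups were far apart and the replicates close. The mean was 7.34 ± 0.21 FPKM in KD and 19.8 ± 0.53 FPKM in NC (SD, n = 3 each), 2.70-fold lower in KD. The log2 difference was -1.32 (SE 0.05, limma adjusted p = 3.15e-05), and it rested on 3539 reads over the KD libraries and 8781 over the NC libraries. By level, Agrn exceeded 46.5% of the genes tested in KD and 75.7% in NC.

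Hspg2 encodes perlecan, the large heparan sulfate proteoglycan that binds laminin, nidogen and growth factors, and it had the highest level of the 10 genes in both groups. Hspg2 (ENSMUSG00000028763, chromosome 4, 137468769 to 137570630, plus strand) had 93.6, 116 and 113 FPKM in KD1, KD2 and KD3, against 91.7, 93.7 and 94.2 FPKM in NC1, NC2 and NC3. KD2 and KD3 lay above the NC libraries and KD1 lay among them. The log2 difference was 0.20 with a 95% interval of -0.01 to 0.41 (limma adjusted p = 0.146). Without KD1 the difference was 0.30 and passed (limma adjusted p = 0.00185). Hspg2 was higher in 2 of 3 KD libraries than in any NC library.

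KD1 was the lowest KD library for Hspg2, Lama5, Lamb2, Agrn and Lamb1, whose transcripts average 60.5%, 57.2%, 58.9%, 56.8% and 51.1% G and C, and not for Lamc1, at 47.8%. Whether GC content bears on the KD1 values was not tested. With a trend in GC content and length removed from each library, the log2 difference was 0.58 for Lama5, 0.35 for Lamb2 and -1.40 for Agrn, each past the threshold (limma adjusted p = 0.000115, 0.0017 and 1.51e-05). Hspg2 then differed by 0.08 (adjusted p = 0.166). Without KD1 the difference was 0.75 for Lama5, 0.51 for Lamb2 and -1.30 for Agrn, and all 3 passed.

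Both nidogens, the linker proteins between laminin and type IV collagen, were close to the limit of detection. Nid1 (ENSMUSG00000005397, chromosome 13, 13437551 to 13512269, plus strand) had 20, 7 and 7 reads in KD1, KD2 and KD3, against 14, 16 and 14 reads in NC1, NC2 and NC3. The KD values lay on both sides of the NC values, and the highest was 0.156 FPKM. Nid2 (ENSMUSG00000021806, chromosome 14, 19751265 to 19811787, plus strand) had 3, 1 and 0 reads in the KD libraries, against 0, 1 and 1 reads in the NC libraries.

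With no filter, limma adjusted p was 0.571 for Nid1 and 0.826 for Nid2. At these levels the 1 added to each FPKM exceeds the values, so this test could hardly find a difference. No test on reads was run for either gene. The share of Nid2 in the summed FPKM of the 2 nidogens, 10.95% in KD and 5.495% in NC on average (exact permutation p = 0.5), rests on 4 reads of Nid2 in KD and 2 in NC. Nid2 also overlaps Rtraf, a gene on the other strand at 46.6 FPKM in KD and 51.6 FPKM in NC. At 0 to 3 reads per library, Nid2 did not carry the level of Rtraf. The strand setting of the counting is not given in the sources used here, so reads of Nid2 within the overlap may have been left out.

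**Figure D4:**
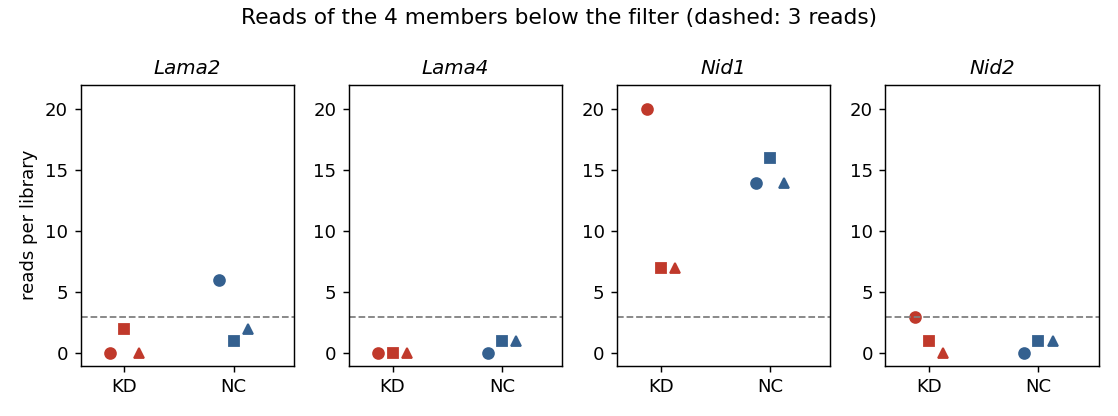
Reads per library (y axis) of Lama2, Lama4, Nid1 and Nid2 in the 3 KD libraries (left) and the 3 NC libraries (right); the dashed line marks 3 reads. Nid1 has 7 to 20 reads per library, and Lama4 has at most 1.

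Other basement membrane components moved in both directions. Of 28 genes listed, 11 were above the filter, 2 rose, 2 fell and 7 did not pass, with a median log2 difference of 0.07. That is 36.4% called, beside 24.5% of all genes tested. Col4a5, a chain of type IV collagen, rose to 13.2 ± 0.60 FPKM in KD, against 7.10 ± 0.35 FPKM in NC (SD, n = 3 each), a log2 difference of 0.81 (limma adjusted p = 0.000388). Sparc, a collagen-binding glycoprotein, rose to 253 ± 13.9 FPKM in KD, against 176 ± 4.95 FPKM in NC (adjusted p = 0.00191). Fbln2, a fibulin that binds nidogen, perlecan and laminin, fell to 47.0 ± 6.30 FPKM in KD, against 76.9 ± 0.62 FPKM in NC (adjusted p = 0.00383). Smoc1, a calcium-binding matrix protein, had 7.13 FPKM in KD and 8.63 FPKM in NC (adjusted p = 0.0442), a call that ended without any of KD2, KD3, NC1, NC2 or NC3 (adjusted p between 0.0558 and 0.154). Without KD1, 5 components rose and 3 fell, and without any other library 2 rose and 1 fell. Among all genes tested, 2572 were higher and 2648 lower without KD1. Without any other 1 library, 590 to 1006 were higher and 923 to 1454 lower, against 1344 and 1672 with all 6.

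The widespread type IV collagen chains, named here after their values were seen, did not pass with all 6 libraries. Col4a1 had 86.6, 104 and 115 FPKM in the KD libraries, against 103, 99.3 and 103 FPKM in the NC libraries (log2 difference -0.0062, 95% interval -0.25 to 0.24). Col4a2 had 56.1, 75.4 and 85.0 FPKM in the KD libraries, against 61.1, 60.4 and 65.6 FPKM in the NC libraries (log2 difference 0.19, 95% interval -0.16 to 0.54). KD1 was the lowest of all 6 libraries for both. Without KD1, the log2 difference of Col4a2 was 0.36 and passed (limma adjusted p = 0.00846), and that of Col4a1 was 0.10 and did not (adjusted p = 0.15). With all 6 libraries and the GC and length trend removed, Col4a2 differed by 0.08 (adjusted p = 0.488). The median difference of chromosome 8, which holds both genes, was 0.17. With each chromosome's median removed, Col4a2 differed by 0.01 (adjusted p = 0.961). Col4a1 passed in neither setting (log2 difference -0.07 and -0.18).

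Among receptors and anchors of these proteins, 6 of the 11 above the filter rose and 2 fell, of 25 listed, with a median log2 difference of 0.26. That is 72.7% called, beside 24.5% of all genes tested, of which 10.9% were higher and 13.6% lower. Itga6, the alpha6 subunit of laminin-binding integrins, had 9.23, 8.25 and 8.33 FPKM in the KD libraries, against 19.8, 19.8 and 19.2 FPKM in the NC libraries. It was 2.28-fold lower in KD, with a log2 difference of -1.10 (SE 0.06, limma adjusted p = 0.000108). Itga3, the alpha3 subunit, which also pairs with beta1 to bind alpha5 laminins, had 2.64, 3.83 and 3.67 FPKM in the KD libraries, against 1.504, 1.62 and 1.39 FPKM in the NC libraries (log2 difference 0.80, adjusted p = 0.00628). The 2 alpha subunits thus moved in opposite directions, each without overlap between groups.

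Genes of the dystroglycan complex, and the integrin subunit gene Itgb1, gave smaller differences. Dtnb, the dystrobrevin beta gene of the cytoplasmic side of the complex, rose to 10.8 ± 0.43 FPKM in KD, against 7.22 ± 0.36 FPKM in NC (limma adjusted p = 0.00228). Sspn, for the membrane protein sarcospan, had 2.29 FPKM in KD and 1.52 FPKM in NC (adjusted p = 0.0354), a call that ended without any library but KD1 (adjusted p between 0.0581 and 0.115). Dag1, dystroglycan itself, Itgb1, the beta1 integrin subunit, and Utrn, the dystrophin relative utrophin, are named here after their values were seen. Dag1 had 66.2, 72.0 and 74.3 FPKM in the KD libraries, against 57.7, 58.0 and 59.1 FPKM in the NC libraries, without overlap (adjusted p = 0.018). Itgb1 averaged 94.5 FPKM in KD and 78.8 FPKM in NC (adjusted p = 0.0458), and Utrn 8.49 FPKM in KD and 10.1 FPKM in NC (adjusted p = 0.0368).

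These calls were less firm than those of Itga6, Itga3 and Dtnb, which passed with each library left out. Dag1 did not pass without KD2, NC1, NC2 or NC3 (limma adjusted p between 0.0661 and 0.081), and neither did Itgb1 (0.0794 to 0.145). Utrn did not pass without any library but KD1 (0.0841 to 0.135). In each fit without KD2, NC1, NC2 or NC3, the list had 2 genes higher and 1 lower. It had 5 higher and 1 lower without KD3, and 8 higher and 2 lower without KD1. Of all genes tested, 590 to 651 were higher and 923 to 983 lower in the fits without KD2, NC1, NC2 or NC3. Without KD3, 1006 were higher and 1454 lower, and without KD1, 2572 and 2648. Removing each chromosome's median difference left 5 genes of the list higher and 1 lower, beside 1072 and 1345 of all genes tested. Itgb1 (log2 difference 0.08) and Utrn (-0.04) then lost their calls. The median removed was 0.17 on chromosome 8, which holds Itgb1, and -0.19 on chromosome 10, which holds Utrn.

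Enzymes that build the laminin-binding sugar of dystroglycan, matriglycan, were counted next. Of 12 listed, 10 were above the filter, 3 rose, 1 fell and 6 did not pass (40% called, beside 24.5% of all genes tested), with a median log2 difference of 0.10. B4gat1, which primes the chain, rose to 23.0 ± 2.34 FPKM in KD, against 16.0 ± 0.41 FPKM in NC (SD, n = 3 each; limma adjusted p = 0.00749). Pomk, a kinase of the core sugar, rose to 7.42 FPKM in KD, against 5.10 FPKM in NC (adjusted p = 0.0119, but 0.0531 without KD2 and 0.0625 with chromosome medians removed). Pomgnt2, a glycosyltransferase of the core, had 6.81 FPKM in KD and 4.93 FPKM in NC (adjusted p = 0.035), and Tmem5, also called Rxylt1 and likewise a glycosyltransferase, had 12.0 FPKM in KD and 15.4 FPKM in NC (adjusted p = 0.02). Both calls ended without any library but KD1, with adjusted p between 0.0612 and 0.122 for Pomgnt2 and between 0.0524 and 0.0839 for Tmem5. The list had 1 gene higher and 0 lower without KD2, and the same counts once chromosome medians were removed. It had 2 higher and 0 lower in each fit without KD3, NC1, NC2 or NC3, and 4 higher and 2 lower without KD1. For all genes tested, these fits ran from 590 higher and 923 lower without NC2 to 2572 and 2648 without KD1. With chromosome medians removed, 1072 of all genes tested were higher and 1345 lower.

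Genes that make or edit heparan sulfate, the sugar carried by perlecan and agrin, had 20% called above the filter, beside 24.5% of all genes tested. Of 29 listed, 15 were above the filter, 1 rose, 2 fell and 12 did not pass, with a median log2 difference of 0.12. Hpse, the heparanase that cuts heparan sulfate chains, had 5.595, 5.37 and 5.38 FPKM in the KD libraries, against 12.4, 11.5 and 10.6 FPKM in the NC libraries, and was 2.11-fold lower in KD (log2 difference -0.95, SE 0.07, limma adjusted p = 0.000305). Fam20b, a kinase of the linkage sugar, fell to 12.9 ± 0.16 FPKM in KD, against 16.8 ± 0.68 FPKM in NC (adjusted p = 0.00551). Ext2, part of the chain polymerase, had 14.9 FPKM in KD and 12.0 FPKM in NC (adjusted p = 0.0231), a call that ended without KD2, KD3, NC1 or NC2 (0.0591 to 0.0955). In those fits 0 genes of the list were higher and 2 lower, while 6 were higher and 3 lower without KD1, and 4 were higher and 2 lower once chromosome medians were removed. All genes tested gave 590 to 1006 higher and 923 to 1454 lower in those fits, and 2572 and 2648 without KD1. They gave 1072 higher and 1345 lower with chromosome medians removed.

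**Figure D5:**
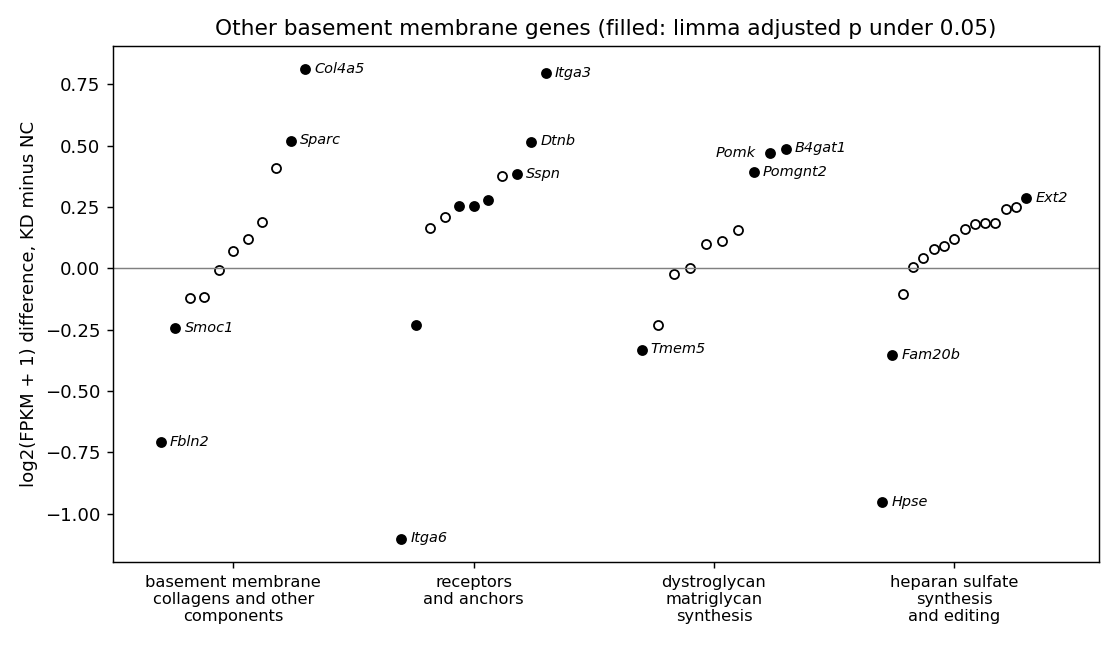
Difference in log2(FPKM + 1), KD minus NC (y axis), for each gene averaging 1 FPKM or more on 4 lists of basement membrane partners (x axis, ordered by value within a list); filled points passed a limma adjusted p of 0.05. Itga6 and Hpse are the lowest of their lists, and Col4a5 and Itga3 the highest of theirs.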

How the data were processed

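The authors deposited 1 table of FPKM per gene for 6 libraries, with a gene length for each row (unit: other, in bases). Per the labels' protocols, paired reads were aligned with HISAT2 2.0.5, and per the submitters' processing notes the build was mm10. For the counting tool, its strand setting and the annotation: not given in the sources used here. FPKM times gene length, scaled by a library size inferred for each library from the step between its values, gave whole reads for 100% of values within a tolerance of 0.01, and depth was taken from these reads.

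Differences are KD minus NC on log2(FPKM + 1), which understates changes of low genes. They were fitted with limma 3.58.1 (R 4.3.3, trended empirical Bayes) on the 12299 genes averaging 1 FPKM or more, with Benjamini-Hochberg adjustment over all of them. Shares were compared by exact permutation (scipy 1.17.1). The code was tested on simulated data. Intervals and read limits cover counting or replicate error only.

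The 10 genes and the gene lists were chosen with earlier results of these data known. Named were Calu, the 10 genes, further laminin chains and, from each list, up to 4 genes past the threshold with the largest absolute difference. Others are marked as chosen after their values were seen. Rxylt1 was matched as Tmem5. Some genes under this rule are not reported here. Alternatives covered pseudocount, filter, scaling, moderation, library weights, voom on recovered reads, a replicate block, each library left out, chromosome medians and a GC and length trend (GC content known for 99.86% of genes tested).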

Additional observations from a re-analysis of the deposited data

How the results depend on the processing

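Lama5, Lamb2 and Agrn kept their direction and an adjusted p under 0.05 in all 20 alternatives each, with log2 differences of 0.58 to 0.76, 0.35 to 0.51 and -1.42 to -1.01. Of these, median-of-ratios scaling could change almost nothing, since its factor was 1.0037 for all 6 libraries. The deposited FPKM were thus already balanced by this measure. Hspg2 passed without KD1 and with array weights (0.31, limma adjusted p = 0.000597). The array weights gave KD1 0.13 and KD2 4.63, so both settings lessen the part of KD1 and are not independent. Lamb1, never past the threshold, had a negative difference with array weights (-0.000396) and chromosome medians removed (-0.01929), and spanned -0.02501 to 0.02454 with each library left out. Lamc1, also never past it, was positive with quantile normalization (0.0065), chromosome medians removed (0.10) and the GC and length trend removed (0.0090). The causes were not tested. The number of the 10 genes that rose was 2 to 3 and the number that fell was 1.

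Over all genes, 1344 were higher and 1672 lower. Array weights gave 3443 and 3483, and removing the GC and length trend gave 2390 higher and 2166 lower. With each library left out, 590 to 2572 were higher and 923 to 2648 lower, the highest counts without KD1. The Lamb2 share was higher in KD by 4.95 to 7.08 points in all 9 alternatives.

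The numbers were not taken as pairs in the main fit. Deviations of same-numbered libraries from their group means correlated at r = 0.08, -0.04 and 0.15, and not every library correlated best with its own number. With 3 libraries per group, these values cannot decide whether same-numbered libraries shared a culture or batch. With the replicate block, 1050 genes were higher and 1383 lower, and of the 10 genes 2 were higher and 1 lower (Agrn, limma adjusted p = 0.00092). Low counts and the 1 added to each FPKM limit Lama2, Lama4, Nid1 and Nid2, for which the test could hardly find a difference.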

Other observations

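Several partners of these proteins were below the filter, and they are named here after their values were seen. Lrp4 and Musk, the receptor pair through which agrin acts at the nerve-muscle synapse, had 33 to 47 and 5 to 16 reads per library in KD, against 39 to 58 and 9 to 12 reads per library in NC. Bcam, a receptor for laminin alpha5, had 20 reads over the 3 KD libraries and 19 over the 3 NC libraries.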
